A study of Mus musculus with 16 samples.

Results

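Immediate early genes are transcribed within minutes of a stimulus without new protein synthesis. Followed here in mouse liver were 10 genes of this class and of the AP-1 family: Jun, Junb, Jund, Fos, Fosb, Egr1, Atf3, Myc, Ier3 and Klf6. They were taken as the rows of the deposited expression table with these gene names, and each name matched 1 of the 57010 rows. The liver RNA came from 16 male C57BL/6J mice in 4 groups of 4, and the study asked how selenium (Se) in the diet alters the damage that cadmium (Cd) does to the liver. Cd mice received CdCl2 by daily intraperitoneal injection at 1.25 mg/kg for 7 days. Se mice ate a diet with selenomethionine (SeMet) at 2 ppm for 3 months, Cd+Se mice received both over the same periods, and control mice received neither. Tissue was collected at the end of treatment, and the time from the last injection to collection is not given. The mice were young adults of a wild-type strain, and what the mice without Cd were injected with is not given in the sources used here. The libraries were made from whole liver RNA selected by its poly(A) tails, so fewer cells of a type and less RNA per cell cannot be told apart in these values.

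Jun, Junb, Jund, Fos and Fosb encode subunits of AP-1, a transcription factor that binds DNA as a dimer of a Jun protein with a Fos, Jun or ATF protein. Stress and growth signals reach these genes through MAP kinases: ERK acts through serum response factor on Fos and Egr1, and JNK phosphorylates the Jun protein, which then acts on its own gene. The transcripts and proteins are short-lived, so a level in tissue reflects the time just before it was collected. In the liver, Jun is known for its part in regeneration and in the survival of hepatocytes, and Atf3 and Myc are known to rise after injury and partial hepatectomy.

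The promoters of 5 of the genes are shown because the results turn on their transcripts: Jun and Fos, whose levels stood apart in 1 Cd mouse, Atf3, which alone passed the test between Cd+Se and Cd, and Ier3 and Klf6, which varied together. RefSeq (GRCm38.p6) gave a promoter for 8 of the 10 genes, and Egr1 and Myc were without an entry. Each line below holds the 250 bases before the transcription start, 5′ to 3′ on the strand of the gene. Jun lies at chr4:95052223-95052472 (minus strand), Fos at chr12:85473640-85473889 (plus), Atf3 at chr1:191183334-191183583 (minus), Ier3 at chr17:35821463-35821712 (plus) and Klf6 at chr13:5861239-5861488 (plus). Capitals mark TGACNTCA and TGACG on either strand, the whole and the shortened forms of the element that AP-1, ATF and CREB dimers recognise.
Jun: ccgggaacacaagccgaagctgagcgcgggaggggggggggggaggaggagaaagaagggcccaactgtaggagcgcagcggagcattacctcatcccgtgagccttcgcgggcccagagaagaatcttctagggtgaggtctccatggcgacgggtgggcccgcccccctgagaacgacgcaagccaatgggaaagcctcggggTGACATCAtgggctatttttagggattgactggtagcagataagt
Fos: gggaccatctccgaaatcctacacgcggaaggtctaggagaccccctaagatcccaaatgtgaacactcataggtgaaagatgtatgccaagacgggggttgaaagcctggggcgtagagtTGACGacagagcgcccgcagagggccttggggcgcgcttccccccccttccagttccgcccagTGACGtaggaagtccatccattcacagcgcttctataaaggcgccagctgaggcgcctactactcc
Atf3: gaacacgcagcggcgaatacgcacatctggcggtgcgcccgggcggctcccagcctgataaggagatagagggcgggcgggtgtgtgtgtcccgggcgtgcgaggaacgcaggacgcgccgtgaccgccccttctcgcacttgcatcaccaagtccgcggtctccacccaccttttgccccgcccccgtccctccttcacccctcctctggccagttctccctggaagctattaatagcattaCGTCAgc
Ier3: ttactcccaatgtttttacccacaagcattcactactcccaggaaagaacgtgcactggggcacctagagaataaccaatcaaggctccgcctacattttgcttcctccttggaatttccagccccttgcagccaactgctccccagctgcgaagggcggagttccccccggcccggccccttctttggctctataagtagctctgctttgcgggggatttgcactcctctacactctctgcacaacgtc
Klf6: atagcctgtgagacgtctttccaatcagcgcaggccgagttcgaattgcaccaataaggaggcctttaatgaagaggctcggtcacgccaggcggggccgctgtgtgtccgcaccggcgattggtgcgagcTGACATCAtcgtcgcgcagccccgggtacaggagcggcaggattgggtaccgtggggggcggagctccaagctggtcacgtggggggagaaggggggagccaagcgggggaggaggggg

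In these 300-base windows, which run on to 50 bases after the start, TGACNTCA occurred in Jun, 45 bases before the start, and in Klf6, 119 bases before it, both times as TGACATCA. Of the 32851 promoters of the table, 8.83% held TGACNTCA. The shorter TGACG occurred in Fos at 129 and 66 bases before the start, in Fosb at 60, in Junb at 106 and, on the opposite strand, in Atf3 at 7, and 20.8% of all promoters held it. The AP-1 element TGANTCA was in none of the 8 windows and in 7.81% of all. The TATA box TATAAA was in the Fos window 33 bases before the start and in that of Junb at the start, against 13.6% of all windows. The CArG box, to which serum response factor binds, was in none of the 8 windows and in 1.63% of all. The GC box GGGCGG was in 6 of the 8 windows and in 35.7% of all. The RefSeq start of Atf3 lies inside the gene as GENCODE M21 draws it, and that of Jund upstream of the gene, so both windows belong to alternative starts. That of Junb lies a short way upstream of the GENCODE gene, so its TATAAA lies before the GENCODE start. The motifs were chosen after the sequences had been seen, and matches are descriptions of letters in these windows.

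Short-lived transcripts often carry ATTTA in the 3′ untranslated region, an element through which proteins promote decay. All 10 genes had at least 1 copy in their longest coding transcript (GENCODE M21), as did 64.7% of 21021 protein-coding genes. The number was 7 in Klf6, 5 in Ier3, 4 in Jun and in Fos, 3 in Atf3, 2 in Junb, Egr1 and Myc, and 1 in Jund and Fosb. Ier3 had 8.16 copies per kilobase, a density above that of 97.8% of genes, for which the median was 1.22.

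Levels are given as TPM, which correct each transcript for its length and scale the libraries to 1 common total. The number of reads behind a library cannot be recovered from them and is unknown. Mt1 and Mt2, which encode the metallothioneins that bind Cd, followed the labels, with Mt1 at 50.91 to 221.04 TPM in control, 3178 to 4899 in Cd, 3621 to 6070 in Cd+Se and 64.34 to 431.03 in Se mice. Hepatocyte markers dominated each library, and the albumin transcript alone was at 22135 to 86650 TPM. The library of Cd mouse 5 stood apart, with 22.2% of its TPM from mitochondrial transcripts (12.8% to 18% in the others), 10917 genes at 1 TPM or more (11388 to 12064 in the others) and the lowest albumin level of the 16. Its median log2(TPM + 1) over the genes tested was also the lowest, at 2.68 (2.90 to 3.36 in the others). Values without this mouse stand beside the results on which it bore most.

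Marker transcripts of other cells differed between the groups. The summed level of 6 neutrophil markers was 5.87 to 16.06 TPM in control mice, 31.39 to 40.23 in Cd, 44.64 to 74.04 in Cd+Se and 5.21 to 9.46 in Se mice. S100a8 and S100a9 made up most of it, with means of 12.65 and 21.25 TPM of 36.16 in Cd mice. Ly6g, which defines the cell type, was listed at 0 in every Cd+Se mouse. It was near the floor in all groups, at 0.17 TPM or less, and was also at 0 in some mice of each other group. The sum of 6 monocyte or macrophage markers was 48.82 to 69.12 TPM in control, 43.01 to 63.43 in Cd, 73.91 to 128.81 in Cd+Se and 43.33 to 63.10 in Se mice, and that of 6 Kupffer cell markers was 104.72 to 128.79, 35.02 to 54.44, 32.09 to 65.62 and 57.85 to 141.80 TPM in the same order. Lyz2 made up most of the monocyte or macrophage sum, with means of 47.92 TPM in control and 46.25 TPM in Cd mice. From control to Cd, the means of Ccr2 (0.73 to 1.54 TPM), Ly6c2 (0.55 to 1.46) and Itgam (0.195 to 0.42) went up. Those of Cd68 (5.5 to 4.8 TPM) and Fcgr1 (1.4 to 1.0) went down. Immediate early genes are transcribed in all of these cells. The part of these cells in the results on Atf3, Ier3, Klf6 and Myc was not tested.

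The 10 genes covered a wide range of levels. Averaged over the 16 mice, Jund was highest at 16.6 TPM, followed by Junb at 10.8, Jun at 9.66, Egr1 at 5.73, Klf6 at 3.06, Myc at 2.54, Ier3 at 2.44, Atf3 at 1.87, Fos at 1.75 and Fosb at 0.0688. Neighbours in this order from Klf6 to Fos overlapped widely between mice. The genes also differed in how far the mice were apart. The highest mouse was 25.6 times the lowest for Egr1, 23.5 times for Myc, 22.7 times for Fos and 12.3 times for Jun, but 1.95 times for Jund. The plot of the levels in each mouse shows all 160 values.

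**Figure D1:**
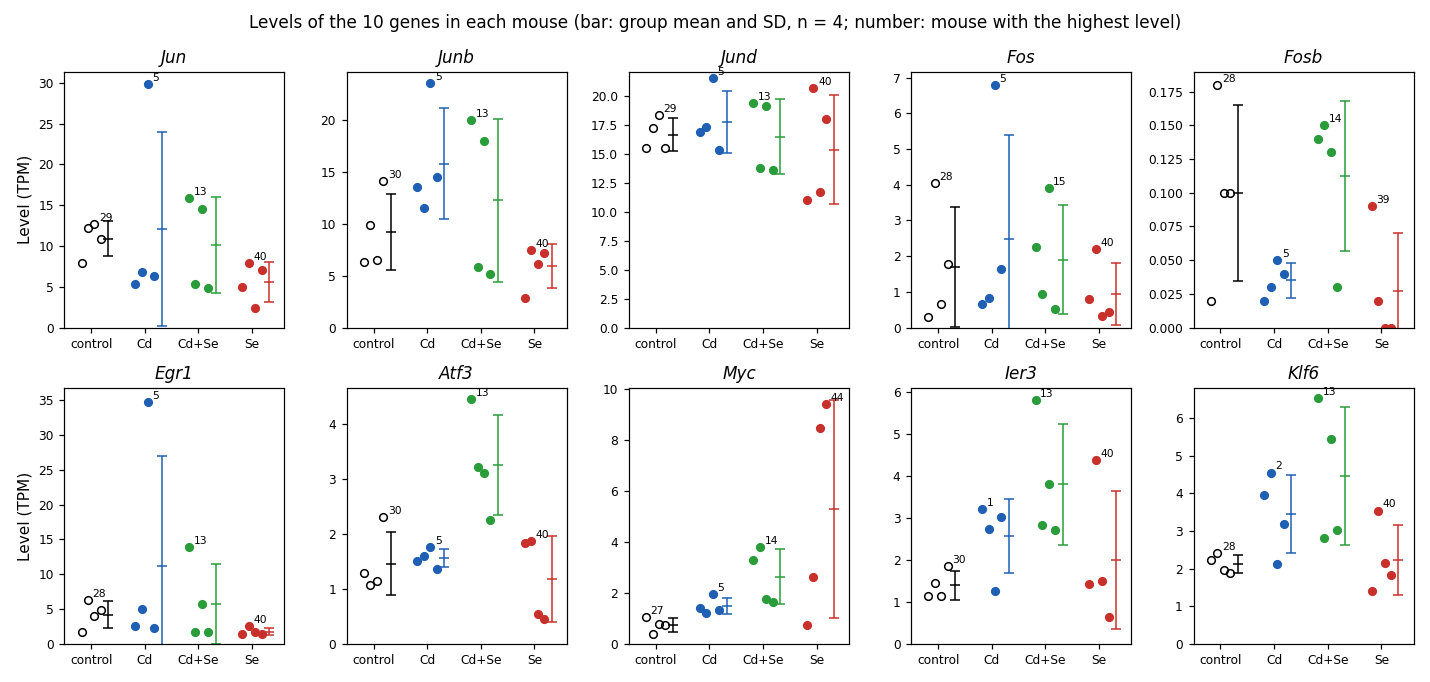
Level of each of the 10 genes (TPM, linear axis from 0) in each mouse of the 4 groups; the bar beside the points is the group mean and SD (n = 4, cut at 0), and the number names the mouse with the highest level of its group. Cd mouse 5 lay far above the other Cd mice for Jun (29.85 TPM), Fos (6.80) and Egr1 (34.77), and mice 13 and 15 lay above mice 14 and 16 of the Cd+Se group in 7 of the 10 genes.

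After 7 days of Cd, at an unstated time after the last injection, no gene of the 10 passed the test against control. In Cd against control, 0 of the 9 genes in the model were called, and 0 had an unadjusted p under 0.05 (limma on log2(TPM + 1), adjusted p under 0.05), where 30.8% of the 11766 genes tested were called, 5.82% as higher and 24.9% as lower in Cd. The model held genes averaging 1 TPM or more over the 16 mice, and Fosb, which was below that, was compared by a permutation test. The log2 fold changes of the 9 genes ranged from -0.20 for Jun to 0.74 for Junb, 8 of the 9 were above 0, and their median was 0.48, against -0.17 over all genes tested. Without Cd mouse 5, 5 of the 9 were above 0 and the median was 0.05. Scaling bore on this comparison, because centring each library on its median moved the median of all genes to 0.05 and changed the calls over all genes from 685 higher and 2934 lower to 2260 higher and 1804 lower. Under that centring Ier3 (0.76, limma adjusted p = 0.0441) and Klf6 (0.70, limma adjusted p = 0.0179) passed as higher in Cd, and under quantile normalization Klf6 alone did (0.66, limma adjusted p = 0.0270), with 1710 genes higher and 2276 lower.

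Jun, the founding AP-1 subunit (ENSMUSG00000052684, chr4:95049034-95052222, a gene of a single exon), was at 7.97, 12.15, 12.72 and 10.81 TPM in control mice 27 to 30. In the Cd mice 1, 2, 5 and 6 it was at 5.36, 6.75, 29.85 and 6.26 TPM. Thus 3 Cd mice were below every control mouse, while mouse 5 was above every other mouse of the study and 4.87 times the mean of the other 3 Cd mice. In the Cd+Se mice 13 to 16, Jun was at 15.85, 5.32, 14.50 and 4.79 TPM, a high pair and a low pair with no mouse in between. The Se mice 39, 40, 41 and 44 had 4.95, 7.88, 2.43 and 7.01 TPM, all below the lowest control mouse. The log2 fold change was -0.20 (95% interval -1.19 to 0.79, limma adjusted p = 0.778) in Cd against control and -0.93 (-1.92 to 0.06, limma adjusted p = 1) in Se against control. Without Cd mouse 5, the first of these was -0.73.

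Junb encodes an AP-1 subunit that activates fewer targets than Jun (ENSMUSG00000052837, chr8:84974484-84978718, a single exon). It was at 6.31, 9.89, 6.50 and 14.16 TPM in the control mice and at 13.52, 11.54, 23.61 and 14.55 TPM in the Cd mice. Every Cd mouse was above 3 of the 4 control mice, and control mouse 30 lay among the Cd mice. Cd exceeded control by a log2 fold change of 0.74 (95% interval -0.10 to 1.57, limma adjusted p = 0.166), the largest of the 9 genes in this comparison. The Cd+Se mice split as for Jun, at 20.03, 5.88, 18 and 5.12 TPM, and the Se mice were at 2.84, 7.47, 6.12 and 7.15 TPM.

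Jund, the subunit that most resting cells hold (ENSMUSG00000071076, chr8:70698949-70700616, a single exon), varied least. It was at 15.53 to 18.41 TPM in control, 15.35 to 21.58 in Cd, 13.63 to 19.44 in Cd+Se and 11.07 to 20.73 in Se mice, so that the 4 groups overlapped. The 95% interval of the log2 fold change was -0.31 to 0.47 in Cd against control and -0.50 to 0.28 in Cd+Se against Cd, the narrowest of the 9 genes in both. Even here, Cd+Se mice 13 and 15 (19.44 and 19.18 TPM) were above mice 14 and 16 (13.79 and 13.63 TPM).

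Fos, the partner that Jun proteins bind most tightly (ENSMUSG00000021250, chr12:85473890-85477273, 4 exons), was at 0.30, 4.04, 0.65 and 1.79 TPM in the control mice. It was at 0.65, 0.83, 6.80 and 1.65 TPM in the Cd mice, with mouse 5 at 6.52 times the mean of the other 3. The Cd+Se mice had 2.25, 0.95, 3.91 and 0.51 TPM and the Se mice 0.79, 2.20, 0.32 and 0.44 TPM. All 4 groups overlapped, and the spread within each was wide: the SD was 99.6% of the mean in control mice and 117% in Cd mice. The 95% interval in Cd against control was correspondingly broad, -0.82 to 1.35 around a log2 fold change of 0.26.

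Fosb, a close relative of Fos (ENSMUSG00000003545, chr7:19302696-19310051, 4 exons), was barely present. The table lists it at 0.02, 0.18, 0.10 and 0.10 TPM in control, 0.02, 0.03, 0.05 and 0.04 in Cd, 0.14, 0.15, 0.13 and 0.03 in Cd+Se, and 0.09, 0.02, 0 and 0 in Se mice. Of the 5 comparisons of 2 groups, the smallest p was 0.0571, in Cd+Se against Se (exact two-sided permutation test of log2(TPM + 1), for which 0.0286 is the smallest possible p with 4 mice against 4). In Cd against control it was 0.143 by the same exact test.

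Egr1 encodes a zinc finger factor that growth factors and stress induce together with Fos (ENSMUSG00000038418, 2 exons). The control mice were at 1.63, 6.34, 3.99 and 4.83 TPM, and the Cd mice at 2.62, 5.06, 34.77 and 2.32 TPM. Mouse 5 had 10.4 times the mean of the other 3 Cd mice, which lay within the control range. Among Cd+Se mice, at 13.89, 1.66, 5.78 and 1.75 TPM, mouse 13 was highest, and the Se mice were close together at 1.43, 2.52, 1.74 and 1.36 TPM. Between Cd and control, Egr1 differed by a log2 fold change of 0.55 with all mice (95% interval -0.82 to 1.93, limma adjusted p = 0.545) and -0.22 without mouse 5.

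Atf3 was the one gene called. It encodes a stress-induced member of the ATF family that binds AP-1 and CREB elements and often represses (ENSMUSG00000026628, chr1:191170296-191218039, 4 exons). The levels were 1.30, 1.07, 1.15 and 2.31 TPM in control, 1.51, 1.60, 1.76 and 1.37 in Cd, 4.46, 3.22, 3.11 and 2.26 in Cd+Se, and 1.84, 1.87, 0.55 and 0.46 in Se mice. Each Cd+Se mouse was above each Cd mouse and each Se mouse, while the Cd mice lay within the control range. Atf3 was higher in Cd+Se mice than in Cd mice by 0.71 on the log2 scale (standard error 0.232, 95% interval 0.22 to 1.20, limma adjusted p = 0.0469), which made 1 of 9 called, against 15.9% of all genes called and 13.6% called as higher. Groups that did not overlap, with Cd+Se above Cd, were found for 16.1% of all genes, and for Atf3 alone among the 10. The other 8 genes tested lay between -0.51 for Junb and 0.51 for Myc, none of them with an unadjusted p under 0.05, and the median of the 9 was -0.05, against 0.17 over all genes.

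The call of Atf3 was close to the threshold. It was lost with quantile normalization (0.56, limma adjusted p = 0.114), with centring of each library (0.52, limma adjusted p = 0.155), with a pseudocount of 0.1 (limma adjusted p = 0.0861), without the filter on low values (limma adjusted p = 0.115) and in a fit of the 2 groups alone (limma adjusted p = 0.0675). It was also lost when any of 10 of the 16 mice was left out, and over all 16 such fits the log2 fold change was 0.59 to 0.83. The share of all genes called moved too, to 6.52% without Cd mouse 5, 6.05% without Cd+Se mouse 14 and 0.561% in the fit of the 2 groups alone. Cd+Se exceeded Se by 1.02 on the log2 scale (95% interval 0.53 to 1.51, limma adjusted p = 0.0564), and no other gene of the 10 had Cd+Se mice all above the Se mice, a pattern of 1.96% of all genes. Relative to control mice it was 0.80 higher (limma adjusted p = 0.175), and control mouse 30 (2.31 TPM) was above Cd+Se mouse 16 (2.26 TPM). The difference of the Cd effect with and without Se, tested as an interaction, was 0.93 (95% interval 0.24 to 1.63, limma adjusted p = 0.129), where 1.04% of all genes were called and 0 of the 9, with Atf3 the only one of them at an unadjusted p under 0.05. Cd+Se mouse 13, the highest for Atf3, also had the highest summed neutrophil (74.04 TPM) and monocyte or macrophage markers (128.81 TPM) of all mice. That mouse was the highest of its group in 7 of the 10 genes, so its rank was not particular to Atf3. In Cd+Se mice 14 to 16, Atf3 was at 3.22, 3.11 and 2.26 TPM. Their neutrophil sums ran the opposite way, at 44.64, 48.1 and 50.6 TPM. Their monocyte or macrophage sums were 95.11, 73.91 and 97.33 TPM.

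Ier3, a small protein that limits cell death and responds to NF-kB (ENSMUSG00000003541, chr17:35821684-35822923, 2 exons), was at 1.13, 1.46, 1.14 and 1.86 TPM in control mice. The Cd mice had 3.22, 2.73, 1.27 and 3.03 TPM. Here Cd mouse 5, the highest for Jun, Fos and Egr1, was the lowest and the only Cd mouse within the control range. Its library also had the lowest median level over all genes tested, so a low value in it is not particular to this gene. The Cd+Se mice had 5.82, 2.84, 3.82 and 2.72 TPM, all above the control mice, and the Se mice 1.42, 4.39, 1.49 and 0.65 TPM, with mouse 40 far above the rest. The log2 fold change was 0.54 (95% interval -0.10 to 1.18, limma adjusted p = 0.183) in Cd against control and 0.97 (0.33 to 1.61, limma adjusted p = 0.217) in Cd+Se against control.

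Klf6 encodes a zinc finger factor of the Krüppel family that is induced in injured liver (ENSMUSG00000000078, chr13:5861482-5870394, 4 exons), and it followed Ier3 closely. It was at 2.22, 2.42, 1.95 and 1.89 TPM in control mice and at 3.94, 4.55, 2.12 and 3.18 TPM in Cd mice, with mouse 5 again the lowest and again alone within the control range. The Cd+Se mice had 6.53, 2.81, 5.45 and 3.02 TPM, all above the control mice. The Se mice had 1.39, 3.54, 2.15 and 1.84 TPM. The log2 fold change was 0.48 (95% interval -0.03 to 0.99, limma adjusted p = 0.137) in Cd against control, 0.75 (0.24 to 1.25, limma adjusted p = 0.230) in Cd+Se against control, and 0.01 (-0.50 to 0.52) in Se against control.

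Myc, the growth factor-responsive regulator of ribosome and metabolic genes (ENSMUSG00000022346, chr15:61985391-61990374, 3 exons), differed from the others in its order of groups. It was at 1.07, 0.40, 0.78 and 0.75 TPM in control, 1.41, 1.21, 1.94 and 1.34 in Cd, and 3.30, 3.81, 1.77 and 1.66 in Cd+Se mice. All Cd mice exceeded all control mice, a pattern of 6.44% of all genes that no other gene of the 10 shared. The Se mice were the most scattered, at 0.75, 2.61, 8.48 and 9.41 TPM, so that mouse 39 was within the control range and mice 41 and 44 had the highest levels of the study. The log2 fold change was 0.51 (95% interval -0.38 to 1.39, limma adjusted p = 0.376) in Cd against control and 1.53 (0.64 to 2.41, limma adjusted p = 0.835) in Se against control, and Myc passed in Cd against control in a fit of the 2 groups alone (limma adjusted p = 0.0298).

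In the comparisons other than Cd+Se against Cd, none of the 9 genes was called by limma. In Cd+Se against control, 0.484% of all genes were called, and 4 of the 9 genes, Atf3, Ier3, Klf6 and Myc, had an unadjusted p under 0.05, as did 1286 of the 11766 genes, each of the 4 higher in Cd+Se. Of these, Myc, Ier3 and Klf6 had all Cd+Se mice above all control mice, as 3.88% of all genes did. Between Cd+Se and Se, 0.714% of all genes were called, and Atf3, Klf6 and Ier3 had an unadjusted p under 0.05, each higher in Cd+Se, again with 1286 of the 11766 genes. In Se against control, 0% of all genes were called, 454 genes had an unadjusted p under 0.05, and Myc was the 1 of the 9 among them. Jun was the 1 gene of the 10 with every Se mouse below every control mouse, as 1.79% of all genes had. These comparisons share their control, Se or Cd+Se mice and are not independent of each other.

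**Figure D2:**
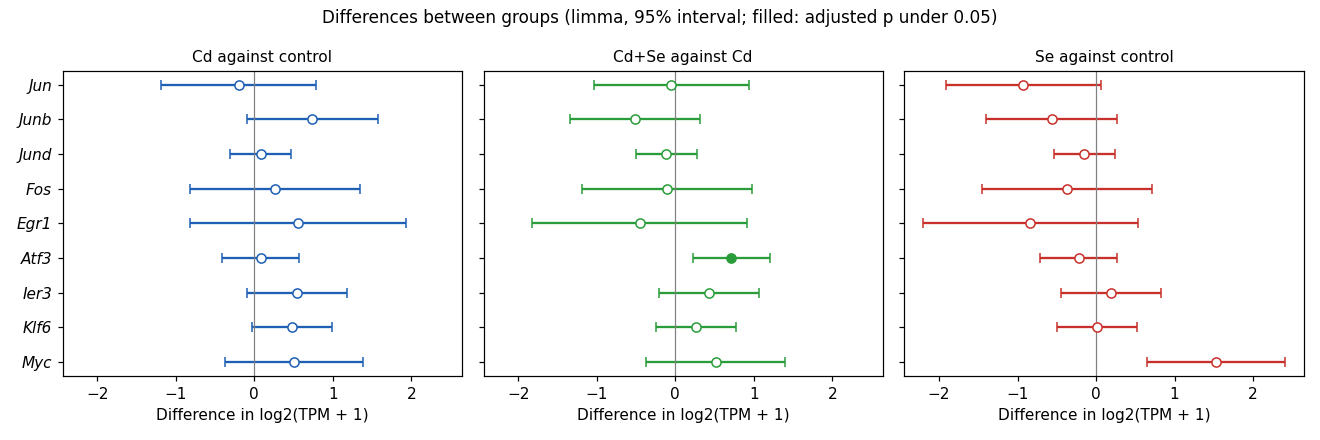
Difference in log2(TPM + 1) between groups for the 9 genes tested (points, limma estimate; bars, 95% interval; filled, adjusted p under 0.05) in Cd against control, Cd+Se against Cd and Se against control. The 1 filled point is Atf3 in Cd+Se against Cd, at 0.71; the intervals of Jund are the narrowest (-0.31 to 0.47 in Cd against control) and those of Egr1 the widest (-0.82 to 1.93).

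Within the groups, single mice carried high levels of many of these genes at once. Cd mouse 5 was the highest of its group in 8 of the 10 genes and the lowest in the other two, Ier3 and Klf6. Se mouse 40 was the highest of its group in 8, all but Fosb and Myc, and Cd+Se mouse 13 in 7. The library of Se mouse 40 was high in general, with a median log2(TPM + 1) over the genes tested of 3.36. In the other Se mice it was 3.06 to 3.20. How many of all genes were highest in each mouse was not counted, so these counts are not set against that share. Cd+Se mouse 16 was the lowest of its group in 8 genes, and control mouse 27 in 6. Albumin was at its highest level of the study in Se mouse 40 (86650 TPM) and at its lowest in Cd mouse 5 (22135 TPM).

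The Cd+Se group fell into pairs. Mice 13 and 15 were above mice 14 and 16 in 7 of the 10 genes, Jun, Junb, Jund, Fos, Egr1, Ier3 and Klf6, and the pairs did not separate for Atf3, Myc and Fosb. Of the 28 other immediate early genes tested, 12 had this order and 1 the opposite, where 12.7% of all genes tested had this order and 23.4% the opposite. Btg2, which restrains cell division, was at 19.89 and 20.40 TPM in mice 13 and 15 and at 3.45 and 3.69 TPM in mice 14 and 16. Nr4a1, an orphan nuclear receptor, was at 2.80 and 11.24 TPM against 1.22 and 0.95, and Maff, a small MAF factor, at 8.39 and 19.04 TPM against 2.65 and 3.72. Gadd45a, a growth arrest gene, was the 1 with the opposite order, at 4.98 and 6.50 TPM in mice 13 and 15 and at 14.84 and 11.39 TPM in mice 14 and 16. Albumin was at 27689 and 44871 TPM in mice 13 and 15 and at 50285 and 48042 TPM in mice 14 and 16, and mitochondrial transcripts made up 15% and 16.1% against 15.7% and 16.7%. The summed level of 5 red cell markers was 1353 and 1567 TPM in mice 13 and 15 and 730.02 and 850.68 TPM in mice 14 and 16, and its part in this order was not tested. The order was read from the values of these genes, and Btg2, Nr4a1, Maff and Gadd45a were named for it after their values had been seen, so no test was made of it.

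Deviations from the group mean were compared across the 16 libraries as a description. Over the 10 pairs among Jun, Junb, Jund, Fos and Egr1, Pearson's r of these deviations on the log2 scale was 0.56 to 0.88, with a median of 0.70, and without Cd mouse 5 it was 0.48 to 0.82, with a median of 0.66. Ier3 and Klf6 had r = 0.77, and 0.72 without Cd mouse 5. This was not particular to the pair without that mouse. Klf6 then had r = 0.77 with Egr1 and with Jund and 0.73 with Junb, and Ier3 had 0.72 with Atf3. Between Jun, Fos and Egr1 on one side and Ier3, Klf6 and Myc on the other, r was -0.20 to 0.18 over 9 pairs (median 0.05). Without Cd mouse 5 the range was -0.34 to 0.77 and the median 0.55. The low values of Ier3 and Klf6 rested on this mouse, with 0.46 to 0.77 without it. Those of Myc did not, at -0.16 with Jun, -0.34 with Fos and -0.06 with Egr1 without it. Atf3 was closest to Ier3 (0.60) and ran opposite to Myc (-0.53). The points of each pair come from the same libraries and share their scaling.

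**Figure D3:**
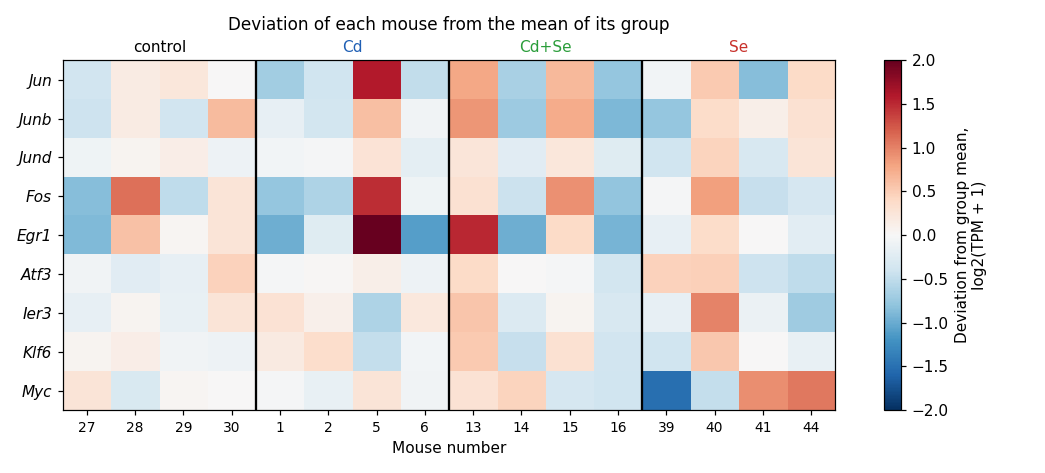
Deviation of each mouse (columns, by group and mouse number) from its group mean in log2(TPM + 1) (colour, -2 to 2) for the 9 genes tested (rows). Jun, Fos and Egr1 were far above the group mean in Cd mouse 5 while Ier3 and Klf6 were below it, mice 13 and 15 of the Cd+Se group were above and mice 14 and 16 below the mean for Jun, Junb and Egr1, and Myc in Se mice ran from low in mouse 39 to high in mice 41 and 44.

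The genes whose deviations were most like those of Jun over the 16 libraries were Egr1 (r = 0.88), Cc2d1b (0.86) and Dhx34 (0.84). For Fos they were Btg2 (0.84), Dhx34 (0.84) and Gdf15 (0.84), the last a secreted stress cytokine. For Egr1 they were Jun (0.88), Fos (0.79) and Dhx34 (0.78). Without Cd mouse 5, these values were 0.64 to 0.82. Btg2 itself was at 14.87 TPM in Cd mouse 5 and at 3.43, 5.24 and 8.21 TPM in the other Cd mice.

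Immediate early genes outside the 10 were taken from a list. Of 36 listed, 28 were tested, and 3 rose and 1 fell in Cd against control, where 5.82% of all genes were called as higher and 24.9% as lower, with a median log2 fold change of 0.09. Plk3, a stress-responsive polo-like kinase, was at 8.87 to 13.26 TPM in control and 21.62 to 48.72 TPM in Cd mice, a rise of 1.45 (standard error 0.367, limma adjusted p = 0.00823), and it passed in all 25 alternatives. Btg1, an antiproliferative relative of Btg2, was at 6.41 to 9.56 TPM in control and 12.64 to 21.25 TPM in Cd mice, a rise of 0.84 (limma adjusted p = 0.00750). Nr4a1 was at 0.29 to 1.64 TPM in control mice and at 2.46, 2.60, 19.66 and 8.42 TPM in Cd mice, a rise of 1.69 (limma adjusted p = 0.0366) that was 1.17 (limma adjusted p = 0.138) without mouse 5 and did not pass in 8 of 24 alternatives. Gadd45a, at 8.25 to 14.75 TPM in control and 3.68 to 8.40 TPM in Cd mice, fell by 0.99 (limma adjusted p = 0.0160), and it did not pass without mouse 5 (-0.89, limma adjusted p = 0.0545). Of the 28, 0 were called by limma between Cd+Se and Cd, against 15.9% of all genes, and 2 had an unadjusted p under 0.05.

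Of 13 AP-1 partners (Fos-like, ATF, MAF and BATF genes), 8 were tested and 2 rose in Cd against control, where 5.82% of all genes were called as higher. Maff was at 1.90 to 3.48 TPM in control and 5.50 to 6.62 TPM in Cd mice, a rise of 0.98 (limma adjusted p = 0.0473). Mafk, its close relative, rose by 0.57 (limma adjusted p = 0.0348). The small MAF proteins lack an activation domain and pair with NRF2 as well as with each other. The call of Maff was lost in 15 of 24 alternatives, among them the fit without Cd mouse 5 (1.02, limma adjusted p = 0.0818), and that of Mafk in 5 of 24. Of the 8, 0 were called by limma between Cd+Se and Cd, and 0 had an unadjusted p under 0.05.

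Kinases and factors that signal to these genes were listed as 1 group. Of its 30 genes of the MAPK and serum response factor pathway, all tested, 10 fell and 1 (Elk4) rose in Cd against control, where 24.9% of all genes were called as lower, with a median of -0.29 against -0.17 for all genes. Map2k6 (-1.10), Rps6ka1 (-0.84) and Map2k3 (-0.82) fell most, and without Cd mouse 5 Rps6ka1 did not pass (-0.68, limma adjusted p = 0.0530). The call of Elk4 (0.37) was lost in 15 of 25 alternatives. Mapk14, the p38 kinase that MAP2K3 and MAP2K6 activate, was at 35.92 to 42.68 TPM in control and 19.64 to 27.78 TPM in Cd mice, a fall of 0.74 (limma adjusted p = 0.000479). With quantile normalization 9 fell and 2 rose, with centred libraries 8 and 3, and without Cd mouse 5 6 and 1. Cd+Se against Cd gave 6 of the 30 that rose and 0 that fell, where 13.6% of all genes were called as higher, with Map3k5 (0.81), Map3k7 (0.59) and Map2k4 (0.58) rising most. These 6 became 5 with 0 lower under quantile normalization, 5 with 2 lower with centred libraries, 3 without Cd mouse 5, and 0 in a fit of the 2 groups alone. Both comparisons share the Cd mice, so a low Cd group gives a fall in one and a rise in the other.

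Feedback inhibitors act against the signals that induce them, and the list held phosphatases, NF-kB inhibitors, Sprouty genes, Errfi1 and Zfp36 genes, among others. It gave 1 rise (Nfkbia, 0.53) and 1 fall (Errfi1, -0.40) among 14 tested of 19 in Cd against control. There 5.82% of all genes were called as higher and 24.9% as lower. The call of Errfi1 was lost in 10 of 25 alternatives, among them centred libraries (-0.18, limma adjusted p = 0.265) and the fit without Cd mouse 5 (-0.32, limma adjusted p = 0.122). Tnfaip3, a brake on NF-kB, was at 0.64 to 0.93 TPM in control, 0.96 to 1.55 in Cd, 1.49 to 5.37 in Cd+Se and 0.59 to 0.97 TPM in Se mice. Cd+Se mice exceeded Cd mice by 0.75 (limma adjusted p = 0.0417), control mice by 1.15 (limma adjusted p = 0.0380) and Se mice by 1.12 on the log2 scale. The first of these calls was lost in 15 of 24 alternatives, among them quantile normalization (limma adjusted p = 0.0922), centred libraries (limma adjusted p = 0.124) and the fit without Cd mouse 5 (0.66, limma adjusted p = 0.126), and the other two were each lost in 14 of 24. Its Cd+Se mice had the same order as for Jun, at 4.36 and 5.37 TPM in mice 13 and 15 and 1.49 and 1.94 TPM in mice 14 and 16. Dusp6, the phosphatase of ERK, was at 20.80 to 36.25 TPM in Cd+Se and 7.59 to 14.67 TPM in Se mice, 1.25 higher (limma adjusted p = 0.0319), a call lost in 7 of 25 alternatives. Control mice were at 21.80 to 34.81 TPM and Cd mice at 18.45 to 33.05 TPM. The Se group was thus the one apart, and Cd+Se overlapped with control and Cd.

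For Myc, the partners and targets were listed separately. Of 12 partners and antagonists of MYC, 11 were tested, and 4 fell and 0 rose in Cd against control, Mxi1 (-0.49), Mxd4 (-0.47) and Mga (-0.45) most, where 24.9% of all genes were called as lower. These counts depended on scaling, with 2 lower and 2 higher under quantile normalization and 1 lower and 4 higher with centred libraries. Without Cd mouse 5, 2 were lower and 1 higher, and Mxd4 did not pass (-0.29, limma adjusted p = 0.109). Of 20 MYC target genes, all tested, 6 fell and 0 rose, where 24.9% of all genes were called as lower, with a median of -0.36. Ccnd1, the G1 cyclin, fell by 1.48 (limma adjusted p = 0.00933), Odc1, the first enzyme of polyamine synthesis, fell by 1.21 (limma adjusted p = 0.000144), and the nucleolar gene Nolc1 fell by 1.17 (limma adjusted p = 0.000415). Myc itself did not pass in this comparison. Odc1 was at 30.07 to 35.72 TPM in control, 10.51 to 16.14 in Cd, 21.41 to 36.40 in Cd+Se and 31.92 to 38.68 TPM in Se mice. Relative to Cd, 3 of the 20 rose in Cd+Se, Odc1 (1.01), Nop58 (0.70) and Nolc1 (0.59), and 1 of 11 partners did, Mxi1 (0.44), where 13.6% of all genes were called as higher. In a fit of the 2 groups alone 0 of the 20 and 0 of the 11 passed, and the call of Mxi1 was lost in 11 of 25 alternatives. Only Odc1 of the 3 targets passed under quantile normalization, with centred libraries and without Cd mouse 5.

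**Figure D4:**
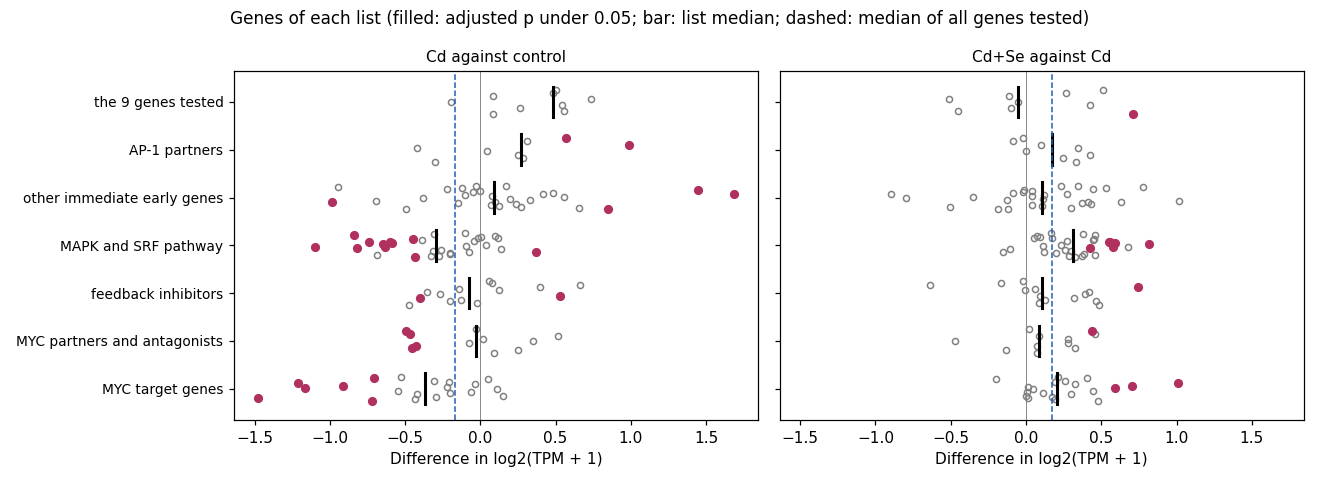
Difference in log2(TPM + 1) of each gene tested (points; filled, limma adjusted p under 0.05) for the 9 genes and the 6 lists around them, in Cd against control and in Cd+Se against Cd; black bars are list medians and the dashed line is the median of all genes (-0.17 and 0.17). In Cd against control the 9 genes had a median of 0.48 with none called. There 10 of 30 genes of the MAPK and serum response factor pathway and 6 of 20 MYC target genes fell. Among all genes tested, 24.9% were called as lower in that comparison.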

How the data were processed

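Liver RNA-seq libraries of 16 mice, 4 in each group, were used, grouped by the sample titles. The authors deposited 1 table of TPM values per gene and mouse, with Ensembl identifiers and gene names. The submitters' processing notes name fastp, HISAT2, StringTie and the build GRCh38, which is a human build, while the identifiers are those of mouse genes; versions are not given in the sources used here. TPM correct for transcript length, share a fixed total, so that a rise of abundant transcripts lowers the rest, and keep no depth. Each group mean rests on 4 mice, and in the fit the spread of a gene was estimated over all 16 libraries together. No count test was used, and no interval or floor was drawn from counts.

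Values were analysed as log2(TPM + 1), a scale on which differences of low genes come out smaller. Genes averaging 1 TPM or more across the libraries, 11766 in all, were fitted together with 1 mean per group, using limma 3.58.1 in R 4.3.3 with an intensity trend in eBayes. The 6 comparisons were the 5 pairs of groups named in the report and the Cd by Se interaction. The Benjamini-Hochberg adjustment was made over all genes tested, and 0.05 was the threshold. Fosb, at a mean of 0.0688 TPM, was compared by exact permutation of the mice between the groups (two-sided, 70 arrangements). The steps were tested on simulated data.

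The 10 genes, the lists of pathway genes and the marker lists were chosen with earlier results of these data known, and the lists were written from general knowledge. Named from a list were the 3 genes with the largest change among those past the threshold in Cd against control and in Cd+Se against Cd; Btg1, Btg2, Mapk14, Elk4, Dusp6 and Ly6g, and the order of list genes among the Cd+Se mice, were named after their values were seen. Genes most like Jun, Fos and Egr1 were the 3 protein-coding genes with the highest Pearson's r of deviations from the group means. The labels name no batch. Gene positions, exons and 3′ untranslated regions were looked up by Ensembl identifier in GENCODE M21 (GRCm38), and promoters are from RefSeq (GRCm38.p6). Alternatives were another pseudocount (0.1), no filter and a filter at 5 TPM, quantile normalization, centring of each library on its median, eBayes without a trend, protein-coding genes only, the groups compared alone and leaving out each mouse; robust eBayes and the counts of the lists under these settings were added after the data had been seen.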

Additional observations from a re-analysis of the deposited data

Results flagged for a closer look

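Of 40 sets of 4 mice, 1 for each gene in each group, 4 held a mouse whose gap to the nearest other mouse took up most of the range of the set (Dixon's ratio above its 95% critical value). For normally distributed values, chance flags about 1 in 20, or 2 of 40. The ratio was taken on TPM and not on the log2 scale, where high values stand out less, so that rate may not hold here. The ratio was 0.943 for Jun in Cd mouse 5 (29.85 TPM, with 5.36 to 6.75 in the other Cd mice), 0.916 for Egr1 in the same mouse (34.77 TPM, with 2.32 to 5.06 in the others) and 0.837 for Fos in the same mouse (6.80 TPM, with 0.65 to 1.65 in the others). These 3 sets come from 1 library, which also had the highest mitochondrial share (22.2%) and the lowest albumin level (22135 TPM) of the study, and whether these bear on its high Jun, Fos and Egr1 was not tested. The fourth, with a ratio of 0.833, was Fosb in Cd+Se mouse 16 (0.03 TPM, with 0.13 to 0.15 in the other Cd+Se mice), a gene near the bottom of the table.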

How the results depend on the processing

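The number of the 9 genes called in Cd against control went from 0 to 1 with quantile normalization, 2 with centred libraries and 1 in a fit of the groups compared alone, and stayed at 0 when any mouse was left out. In Cd+Se against Cd it went from 1 to 0 with a pseudocount of 0.1, without a filter, with a mean of at least 5 TPM (where Atf3 was not tested), with quantile normalization, with centred libraries and in a fit of the groups alone, and was 0 to 1 when a mouse was left out. In Cd+Se against Se it went from 0 to 1, Atf3, with protein-coding genes only and with robust eBayes, and was 0 to 1 when a mouse was left out. It stayed at 0 in the other comparisons. No other cause of these changes was tested. Counts for the lists also moved: genes that rose in Cd against control numbered 5 and 6 among other immediate early genes (3 before) and 3 and 4 among AP-1 partners (2 before) with quantile normalization and centred libraries. No paired analysis was possible because the mouse numbers are not shared between groups.

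Directions that turned belonged to differences that had not passed. With centred libraries the log2 difference was 0.022 for Jun and 0.13 for Fosb in Cd against control, -0.091 for Fosb in Cd+Se against Cd, and -0.13 for Junb and -0.14 for Jund in the interaction. With quantile normalization it was -0.093 for Junb and -0.086 for Jund in the interaction and -0.0066 for Fosb in Cd+Se against control. With a pseudocount of 0.1 it was -0.0027 for Klf6 in Se against control. Leaving out 1 mouse turned the sign of 21 differences. In Cd against control these ranged from -0.73 to 0.032 for Jun, -0.23 to 0.63 for Fos, -0.22 to 0.92 for Egr1 and -0.0099 to 0.15 for Jund. Between Cd+Se and Cd they ranged from -0.31 to 0.48 for Jun, -0.40 to 0.39 for Fos and -0.96 to 0.32 for Egr1. Between Cd+Se and control they ranged from -0.51 to 0.0074 for Jun, -0.071 to 0.52 for Junb, -0.11 to 0.050 for Jund, -0.14 to 0.53 for Fos, -0.41 to 0.42 for Egr1 and -0.019 to 0.053 for Fosb. In Se against control they ranged from -0.65 to 0.00075 for Fos, -0.15 to 0.42 for Ier3 and -0.17 to 0.14 for Klf6. Between Cd+Se and Se the range was -0.010 to 0.27 for Jund. For the interaction they ranged from -0.24 to 0.35 for Junb, -0.091 to 0.19 for Jund, -0.10 to 0.76 for Fos and -0.12 to 1.16 for Egr1. Depth is unknown, so how far it limits Fosb and other low genes cannot be given.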
